A study of Mus musculus with 6 samples.

Results

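The contractile apparatus of the myometrium, the smooth muscle wall of the uterus, was examined here through 32 genes, out of 20145 genes matched to a probe and 14854 tested. The genes were chosen by name for their role in smooth muscle contraction. No measured value entered the rule, but earlier results of these data were known when they were chosen. RNA came from whole uteri of 3 Sox17f/f mice and 3 Sox17ed/ed mice at gestation day (GD) 3.5, after natural mating of females aged 8 to 10 weeks, with embryos flushed out. Mice of both genotypes carry the floxed *Sox17* allele on both chromosomes, and Sox17ed/ed mice (LtfiCre/+ Sox17 f/f in the labels) also carry 1 allele of iCre in the *Ltf* locus. This recombinase is active in the uterine epithelium from puberty, and smooth muscle is not its stated site of action. The controls carry no iCre, and effects of the recombinase itself cannot be told apart from those of *Sox17* loss. Each mouse was measured on 1 Agilent 1-colour array, and the unit throughout is the quantile normalized log2 signal of a probe. The slide held Sox17f/f arrays in 1 row and Sox17ed/ed arrays in the other, so row and genotype cannot be told apart. Arrays with the same replicate number also shared a column of the slide.

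Smooth muscle contracts when calcium, entering through voltage-gated channels or released from internal stores, activates myosin light chain kinase through calmodulin. The kinase phosphorylates the regulatory light chain of myosin, and myosin then pulls on actin filaments anchored in dense bodies and membrane plaques. Myosin phosphatase reverses the reaction, and cyclic GMP signaling favors relaxation. Most genes of the apparatus are switched on by serum response factor (SRF) with its coactivator myocardin. In early pregnancy progesterone keeps the myometrium quiet, and oxytocin, acting on its receptor, drives contraction at birth.

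The genotype was checked on *Sox17* itself, with normalized log2 signals of 12.21, 12.07 and 12.22 in Sox17f/f uteri and 9.75, 9.59 and 9.81 in Sox17ed/ed uteri (log2 fold change -2.45, limma adjusted p = 2.69e-05). *Ltf*, the lactoferrin gene whose locus carries iCre, had a log2 fold change of 5.63 (limma adjusted p = 1.17e-05). The share of spots well above background was 60.7% to 65.7% on Sox17f/f arrays and 56.8% to 59.4% on Sox17ed/ed arrays, and its part in the results below was not tested. Markers of the uterus were present: *Esr1* and *Pgr*, the estrogen and progesterone receptors, had log2 fold changes of -0.040 (adjusted p = 0.738) and 0.0076 (adjusted p = 0.946). For the other 3 of 5 tested, all Sox17ed/ed arrays lay above the Sox17f/f arrays, where 19.6% of all genes lay so. These were *Hoxa10* (0.34, limma adjusted p = 0.0139), *Hoxa11* (0.17, 0.0991) and *Wnt7a* (0.88, 0.0534). *Hoxa13* did not pass the filter on low signal. All 32 contractile genes were well above background on all 6 arrays and passed the filter on low signal.

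SRF binds the CArG box, which reads CC, then 6 bases that are each A or T, then GG, and is its own pattern on the opposite strand. RefSeq promoters (GRCm38.p6, 250 bases before to 50 after a gene's start) were read for 26 of the 32 genes, and those with no entry included *Actg2*, *Myh11*, *Tagln*, *Itpr1* and *Myocd*. Contractile gene promoters on 1 chromosome were left out, while the counts over all genes and promoters kept that chromosome. A CArG box lay in that window of 3 of these 26 genes, against 488 of 27025 genes in all (1.81%), and of 535 of 32851 promoters (1.63%). Allowing 1 base of the core to be G or C, the counts were 6 of 26 genes and 3050 of 27025 (11.3%), or 9.98% of all promoters. The 3 genes with a full box were *Srf*, *Vcl* and *Myl9*, and the *Acta2* window held a pair of boxes with 1 such base each. Boxes with 1 such base also lay in windows of *Jph2* and *Cacna1c*, which are not printed. The 250 bases upstream of *Srf*, *Vcl*, *Myl9* and *Acta2* are shown because *Srf* is itself among the genes that fell. Capitals mark the boxes, those with 1 other base in the core included.
Srf (chr17:46556163-46556412, minus strand): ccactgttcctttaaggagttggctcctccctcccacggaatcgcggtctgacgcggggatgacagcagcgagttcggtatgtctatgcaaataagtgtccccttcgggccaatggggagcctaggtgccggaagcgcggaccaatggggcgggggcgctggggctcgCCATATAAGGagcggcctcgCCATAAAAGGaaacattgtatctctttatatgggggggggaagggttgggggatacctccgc
Vcl (chr14:20929148-20929397, plus strand): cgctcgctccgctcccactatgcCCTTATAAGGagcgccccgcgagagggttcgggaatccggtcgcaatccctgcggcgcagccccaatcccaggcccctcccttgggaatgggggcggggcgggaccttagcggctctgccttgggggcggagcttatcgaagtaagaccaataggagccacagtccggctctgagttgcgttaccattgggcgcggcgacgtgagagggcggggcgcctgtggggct
Myl9 (chr2:156775214-156775463, plus strand): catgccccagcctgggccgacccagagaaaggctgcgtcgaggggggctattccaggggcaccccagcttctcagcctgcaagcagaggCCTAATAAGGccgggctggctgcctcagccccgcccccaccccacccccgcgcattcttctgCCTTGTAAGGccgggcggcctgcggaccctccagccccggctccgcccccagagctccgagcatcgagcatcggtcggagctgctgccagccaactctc
Acta2 (chr19:34255374-34255623, minus strand): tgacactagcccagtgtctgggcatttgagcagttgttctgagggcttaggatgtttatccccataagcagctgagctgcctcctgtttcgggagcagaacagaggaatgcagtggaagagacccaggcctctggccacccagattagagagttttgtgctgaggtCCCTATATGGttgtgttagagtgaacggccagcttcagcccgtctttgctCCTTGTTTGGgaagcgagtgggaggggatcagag
The boxes began at positions -82 and -62 of *Srf*, -227 of *Vcl*, -161 and -99 of *Myl9* and -84 and -34 of *Acta2*, counted back from the annotated start. A match is a description of the letters in this window and no evidence of binding.

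Contractile genes were mostly a little lower in Sox17ed/ed than in Sox17f/f uteri. At a limma adjusted p under 0.05, 6 of the 32 genes fell (18.8%), where 10.0% of all genes tested fell. Among them were *Actg2*, *Cnn1*, *Cald1*, *Srf* and *Ppp1r12a*. By the same limma test 0 of the 32 rose, where 8.81% of all genes tested rose, and at an unadjusted p under 0.05 the counts were 14 lower and 0 higher, where 17.5% of all genes were lower and 16.4% higher. At the thresholds of the methods, an unadjusted p under 0.01 and a fold change of at least 1.4, *Actg2* alone passed (3.1%), downward. Of all genes 6.46% passed downward and 6.05% upward. The log2 fold change was below 0 for 26 of the 32 genes, and its median was -0.21, against -0.0016 over all genes tested. The 3 Sox17ed/ed arrays lay below the 3 Sox17f/f arrays for 15 genes, where 21.0% of all genes lay so, and above them for *Itpr1* alone, where 19.6% lay so. With the slide column as a block 2 of the 32 genes fell, *Actg2* and *Srf*. In that fit 962 of all 14854 genes tested fell, in place of 1490, so the 32 genes fell no more often than all genes. Within columns 1, 2 and 3, each with 1 array of each genotype, the median difference over the 32 genes was -0.26, -0.23 and -0.10. For each gene whose groups lay apart the exact permutation test gives p = 0.1 (two-sided), the smallest that 3 against 3 arrays allow. In whole uteri, fewer smooth muscle cells, less RNA per cell and changes in the number or RNA of other cells cannot be told apart.

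**Figure D1:**
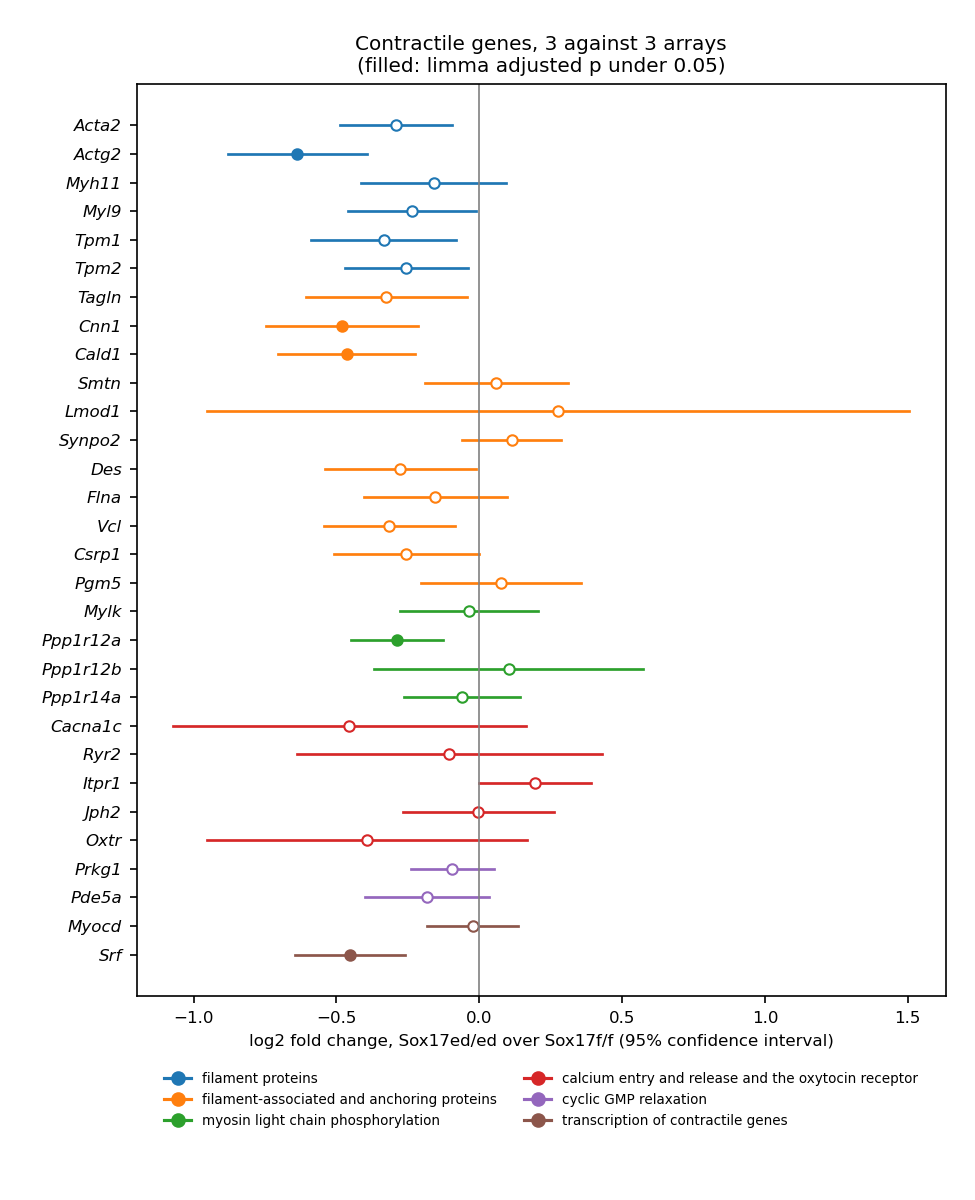
Log2 fold change of 30 of the 32 contractile genes between Sox17ed/ed and Sox17f/f uteri (x axis), with 95% confidence intervals from limma, colored by role. Filled points mark the 5 genes with an adjusted p under 0.05, all of them below 0, with *Actg2* lowest at -0.64.

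Among the filament proteins, *Actg2*, the smooth muscle actin of visceral organs, changed most. Its normalized log2 signal was 15.94, 16.15 and 16.01 in Sox17f/f uteri and 15.24, 15.53 and 15.41 in Sox17ed/ed uteri. All 3 Sox17ed/ed arrays lay below all 3 Sox17f/f arrays, and the signal fell by 35.7% (log2 fold change -0.64 with a standard error, SE, of 0.10, limma adjusted p = 0.00796). *Acta2*, the actin that visceral and vascular smooth muscle share, had signals of 17.03, 17.15 and 17.18 in Sox17f/f uteri and 16.75, 16.81 and 16.94 in Sox17ed/ed uteri. Here too the groups did not overlap, but the log2 fold change of -0.29 (SE 0.08) missed the threshold at a limma adjusted p of 0.0545. *Myh11*, the smooth muscle myosin heavy chain, gave 12.96, 13.15 and 13.18 in Sox17f/f uteri and 12.82, 12.88 and 13.11 in Sox17ed/ed uteri. Replicate 3 of Sox17ed/ed lay among the Sox17f/f arrays, and the log2 fold change was -0.16 with a 95% interval of -0.41 to 0.094. *Myl9*, the regulatory light chain, had a log2 fold change of -0.24 (adjusted p = 0.133). The tropomyosins *Tpm1* and *Tpm2*, which lie along actin, had -0.33 (adjusted p = 0.0761) and -0.26 (adjusted p = 0.0995). Thus 1 of the 6 filament genes fell by limma, where 10.0% of all genes tested fell. All 6 had a log2 fold change below 0, with a median of -0.27, where 50.2% of all genes were below 0. For 5 the 3 Sox17ed/ed arrays all lay below the Sox17f/f arrays, where 21.0% of all genes lay so.

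**Figure D2:**
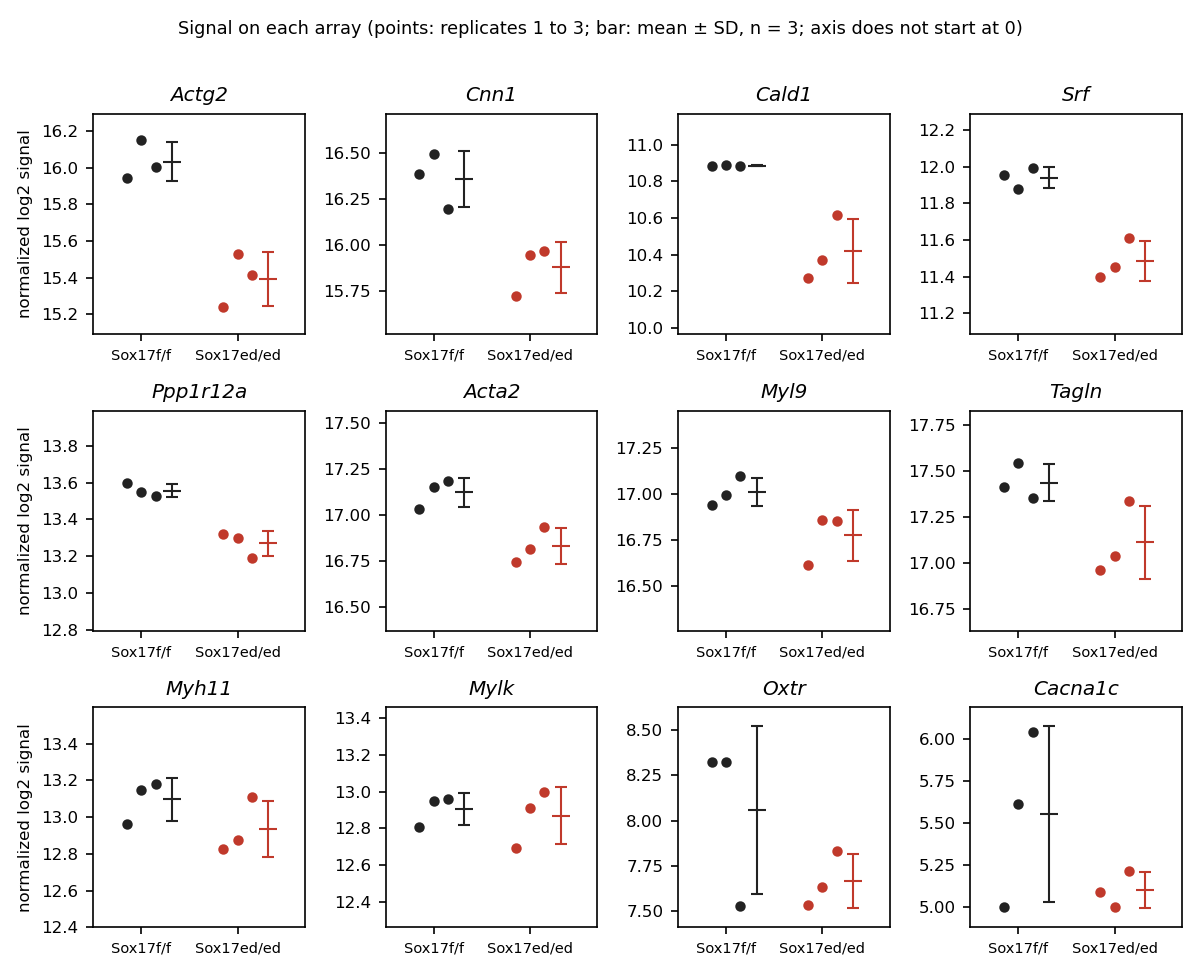
Normalized log2 signal (y axis, not starting at 0) of 12 contractile genes on each array, with mean ± SD (n = 3). The groups lie apart for *Actg2*, *Cnn1*, *Cald1*, *Srf*, *Ppp1r12a*, *Acta2*, *Myl9* and *Tagln* and overlap for *Myh11*, *Mylk*, *Oxtr* and *Cacna1c*.

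Of the 11 genes for proteins that bind, crosslink or anchor the filaments, *Cnn1* and *Cald1* fell (18.2%), where 10.0% of all genes fell. *Cnn1* encodes calponin, an actin-binding protein of differentiated smooth muscle, and its signals were 16.39, 16.49 and 16.19 in Sox17f/f uteri and 15.72, 15.94 and 15.97 in Sox17ed/ed uteri. The groups lay apart, and the signal fell by 28.4% (log2 fold change -0.48 with SE 0.11, limma adjusted p = 0.0295). *Cald1* encodes caldesmon, which restrains actin-activated myosin, and gave 10.89, 10.89 and 10.88 in Sox17f/f uteri and 10.28, 10.37 and 10.62 in Sox17ed/ed uteri. The 3 Sox17f/f values were nearly the same while the Sox17ed/ed values spread below them, and the signal fell by 27.5% (log2 fold change -0.46 with SE 0.10, limma adjusted p = 0.0232).

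*Tagln*, the actin-associated transgelin, had signals of 17.41, 17.55 and 17.36 in Sox17f/f uteri and 16.96, 17.04 and 17.34 in Sox17ed/ed uteri. Replicate 3 of Sox17ed/ed reached almost to the lowest Sox17f/f value, and the log2 fold change of -0.33 had an adjusted p of 0.107. The groups also lay apart for *Des*, the intermediate filament protein desmin (-0.28, adjusted p = 0.134), and for *Vcl*, the plaque protein vinculin (-0.32, adjusted p = 0.0679). They overlapped for *Csrp1*, a LIM protein on actin (-0.26, adjusted p = 0.147), and *Flna*, the actin crosslinker filamin A (-0.15, adjusted p = 0.348). A further 4 genes had log2 fold changes above 0. These were *Synpo2*, an actin-binding protein (0.11, 95% interval -0.060 to 0.29), *Pgm5*, an adherens junction protein (0.077, -0.20 to 0.36), *Smtn*, the smooth muscle protein smoothelin (0.060, -0.19 to 0.31), and *Lmod1*, the actin nucleator leiomodin (0.28, -0.95 to 1.5). The *Lmod1* signals were low and scattered, 5.58, 5.14 and 5.31 in Sox17f/f uteri and 4.74, 5.31 and 6.80 in Sox17ed/ed uteri, and without Sox17ed/ed replicate 3 its log2 fold change was -0.32. *Smtn* changed sign with arrays shifted by their 75th percentile (-0.022) in place of quantile normalization. The median of the 11 genes was -0.26.

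Of the 6 genes that set the phosphorylation of myosin 2 fell, *Ppp1r12a* among them, where 10.0% of all genes fell. *Mylk*, the gene of myosin light chain kinase, had signals of 12.81, 12.95 and 12.96 in Sox17f/f uteri and 12.69, 12.91 and 13.00 in Sox17ed/ed uteri. The groups overlapped, and the log2 fold change was -0.036 with a 95% interval of -0.28 to 0.20, within a 1.4-fold change either way. *Ppp1r12a*, the targeting subunit of myosin phosphatase, had 13.60, 13.55 and 13.53 in Sox17f/f uteri and 13.32, 13.30 and 13.19 in Sox17ed/ed uteri. The spread was small, and the signal fell by 18.0% (log2 fold change -0.29 with SE 0.07, limma adjusted p = 0.0308). The related subunit *Ppp1r12b* had a log2 fold change of 0.10 (95% interval -0.37 to 0.57), and *Ppp1r14a*, the phosphatase inhibitor CPI-17, had -0.060 (-0.26 to 0.14).

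None of the 5 genes of calcium entry, calcium release and the oxytocin receptor passed the limma test, and at an unadjusted p under 0.05 the count was also 0. *Oxtr*, the oxytocin receptor, had signals of 8.33, 8.32 and 7.53 in Sox17f/f uteri and 7.54, 7.63 and 7.83 in Sox17ed/ed uteri. Sox17f/f replicates 1 and 2 were high and replicate 3 was the lowest of all 6 arrays, and the log2 fold change was -0.39 with an interval of -0.95 to 0.17. Without Sox17f/f replicate 3 it was -0.66 and passed (limma adjusted p = 0.0138). That was 1 of the 6 fits with an array left out. Across them the log2 fold change of *Oxtr* ran from -0.66 to -0.26, with limma adjusted p up to 0.565. *Cacna1c*, the pore of the L-type calcium channel, had 5.0, 5.62 and 6.04 in Sox17f/f uteri and 5.09, 5.0 and 5.21 in Sox17ed/ed uteri. Only Sox17f/f replicate 1 lay among the Sox17ed/ed arrays, and the log2 fold change was -0.45 (-1.07 to 0.16). Without that array it was -0.73 (limma adjusted p = 0.0418), again the 1 fit of 6 that passed. Across the 6 fits *Cacna1c* ran from -0.73 to -0.21, with limma adjusted p up to 0.499. *Itpr1*, an IP3 receptor of the calcium store, had 11.79, 11.62 and 11.79 in Sox17f/f uteri and 11.84, 11.98 and 11.97 in Sox17ed/ed uteri. It was the contractile gene whose Sox17ed/ed arrays all lay above the Sox17f/f arrays, with 0.19 (-0.00045 to 0.39, adjusted p = 0.148). *Ryr2*, a ryanodine receptor, had -0.10 (-0.64 to 0.43) and *Jph2*, which ties the store to the cell membrane, -0.0038 (-0.27 to 0.26).

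On the side of relaxation, *Prkg1*, the cyclic GMP-dependent kinase, had a log2 fold change of -0.095 (95% interval -0.24 to 0.051), and *Pde5a*, which breaks down cyclic GMP, -0.18 (-0.40 to 0.034). For both the Sox17ed/ed arrays lay below the Sox17f/f arrays, where 21.0% of all genes lay so, and the limma adjusted p was 0.324 and 0.211.

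Of the pair of transcriptional regulators, *Srf* fell and *Myocd* did not pass. *Srf* had signals of 11.95, 11.88 and 11.99 in Sox17f/f uteri and 11.40, 11.45 and 11.61 in Sox17ed/ed uteri. The groups lay apart, and the signal fell by 26.9% (log2 fold change -0.45 with SE 0.08, limma adjusted p = 0.0122). *Myocd*, the smooth muscle coactivator myocardin, gave 9.88, 9.82 and 9.84 in Sox17f/f uteri and 9.75, 9.83 and 9.89 in Sox17ed/ed uteri. These overlapped, at -0.023 with an interval of -0.18 to 0.14, so a change of 1.4-fold in either direction lay outside the interval. The difference between the log2 fold changes of *Srf* and *Myocd* was not tested. Of the genes whose windows are printed above, *Srf* fell, and *Vcl*, *Myl9* and *Acta2* did not pass the threshold. *Jph2* and *Cacna1c*, with boxes in windows not printed, did not pass either.

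Leaving out 1 array in turn separated the genes that fell. *Actg2* passed every time, at adjusted p values from 0.0138 to 0.0316. *Srf* passed except without Sox17f/f replicate 1, at -0.45 (limma adjusted p = 0.0513). *Cnn1* passed only without Sox17f/f replicate 3, and without any of the other arrays the adjusted p was up to 0.0959. *Cald1* passed only without Sox17ed/ed replicate 3, with 0.0769 as the highest of the others. *Ppp1r12a* passed in 0 of the 6 fits, with limma adjusted p values from 0.0560 to 0.112. *Tagln* joined them without Sox17ed/ed replicate 3 (-0.44, limma adjusted p = 0.0379). The count of contractile genes that fell was 2 without Sox17f/f replicate 1, without Sox17f/f replicate 2 and without Sox17ed/ed replicates 1 or 2, 5 without Sox17f/f replicate 3, and 4 without Sox17ed/ed replicate 3.

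The arrays within a genotype shared an order across the 17 filament and filament-associated genes. Sox17ed/ed replicate 1 was the lowest of its group for 14 of them and replicate 3 the highest for 14. In the Sox17f/f group, replicate 2 was the highest for 11 and replicate 1 the lowest for 11. The median deviation of the 17 genes from their mean over 6 arrays was 0.048, 0.19 and 0.079 on the log2 scale for Sox17f/f replicates 1 to 3, and -0.23, -0.16 and 0.022 for Sox17ed/ed replicates 1 to 3. Sox17ed/ed replicate 3 therefore lay near the lowest Sox17f/f array for this group of genes. The median SD between arrays of 1 genotype was 0.13 over the 32 genes and 0.12 over all genes tested.

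**Figure D3:**
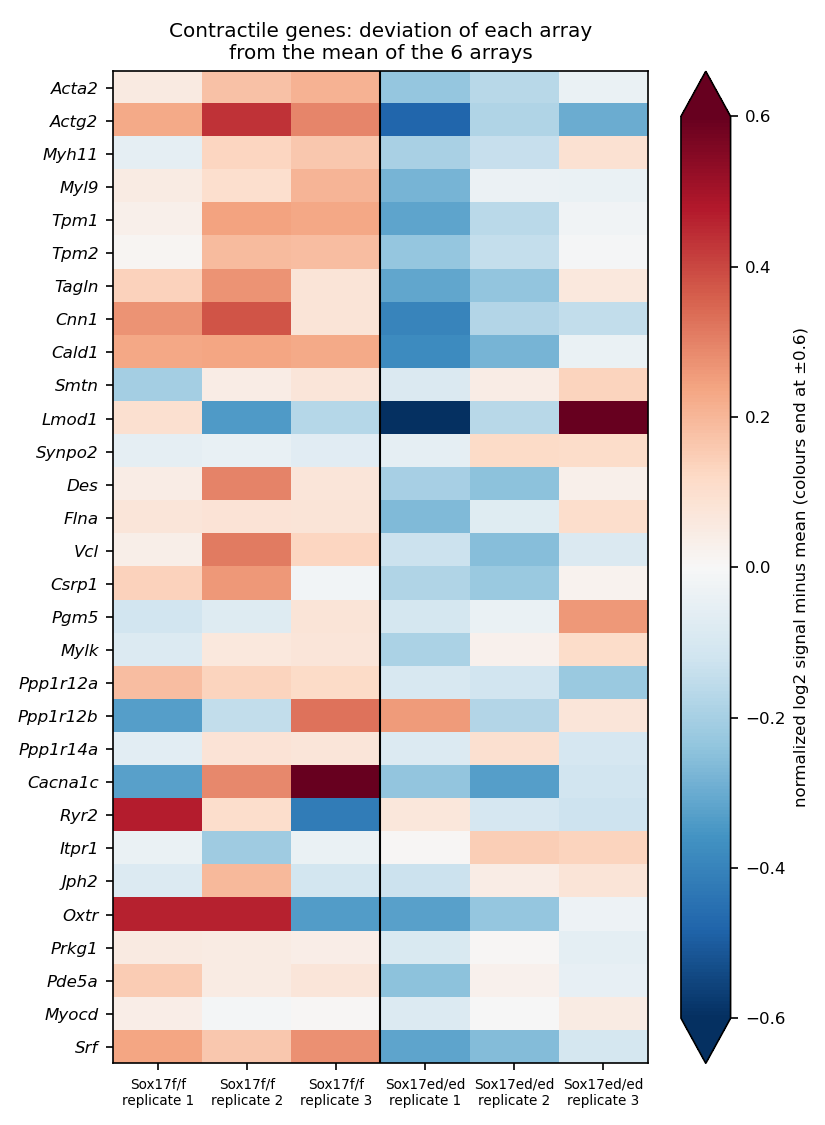
Deviation of each array (columns) from the mean of the 6 arrays for 30 contractile genes (rows), on the normalized log2 scale. Sox17f/f arrays are mostly above the mean and Sox17ed/ed replicates 1 and 2 mostly below it, with Sox17ed/ed replicate 3 in between.

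Several genes had more than 1 probe, and these showed where a value depended on the probe. The array held 49 probes of the 32 genes, all of them tested, and in a fit over all 19595 tested probes 13 of the 49 fell and 0 rose at a limma adjusted p under 0.05, where 9.24% of all probes fell and 7.59% rose. Both probes of *Srf* (-0.45 and -0.60), *Cald1* (-0.46 and -0.40) and *Ppp1r12a* (-0.29 and -0.41) fell. The second *Vcl* probe fell (-0.53, adjusted p = 0.0110) where the brighter probe had -0.32, and likewise the second *Tpm2* probe fell (-0.38, adjusted p = 0.0112). The 5 *Tpm1* probes, which the array design ties to 4 transcript accessions, ranged from -0.59 to -0.12, and 2 of them fell. For 9 of the 12 genes with several probes all log2 fold changes had 1 sign, the exceptions being *Synpo2*, *Pgm5* and *Ppp1r12b*. Signals of near-identical paralogs, such as the actins, may be shared between probes, and this was not tested.

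**Figure D4:**
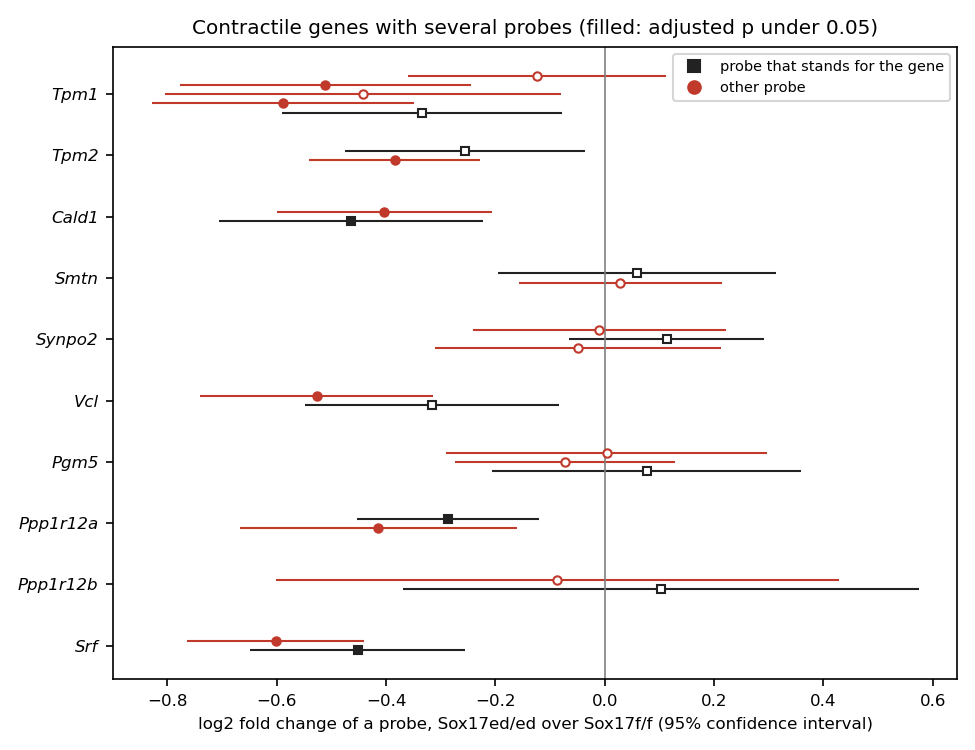
Log2 fold change with 95% confidence interval (x axis) of each probe for 10 of the 12 contractile genes with several probes. Squares mark the probe that stands for the gene, circles the others, and filled symbols an adjusted p under 0.05, as for the second probes of *Vcl* and *Tpm2*.

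Another 94 genes of contraction and its control, chosen by role, gave context, and 91 of them were tested. Of these, 21 fell and 6 rose at a limma adjusted p under 0.05, 23.1% and 6.59%, with a median log2 fold change of -0.13. Of all genes tested, 10.0% fell and 8.81% rose. Among 22 genes of the smooth muscle cytoskeleton and its adhesions, 7 fell and 1 rose, with a median of -0.28. *Synm*, an intermediate filament protein that pairs with desmin, had -0.57 (limma adjusted p = 0.0249). *Cnn2*, a second calponin, had -0.56 (limma adjusted p = 0.00332), *Actn1*, the actin crosslinker alpha-actinin, -0.54 (limma adjusted p = 0.00510), and *Cav1*, the caveolae protein, -0.36 (limma adjusted p = 0.0495). *Svil*, an actin-binding protein, was the gene that rose (0.26, limma adjusted p = 0.0315).

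Of 19 tested receptors, G proteins and partners of contraction, 1 fell and 2 rose, 5.26% and 10.5%. Of all genes tested, 10.0% fell and 8.81% rose. *Ednra*, an endothelin receptor of smooth muscle, fell (-0.46, limma adjusted p = 0.0391). *Ednrb*, the second endothelin receptor (0.60, limma adjusted p = 0.00969), and *Gja1*, the gap junction protein connexin 43 (0.52, limma adjusted p = 0.0214), rose. *Gja1* is also expressed in the endometrium. In calcium handling 7 of 22 tested genes fell (31.8%) and 3 rose (13.6%), with a median of -0.087. *Itpr2*, an IP3 receptor like *Itpr1*, fell most (-1.30, limma adjusted p = 0.000177), whereas the third of the family, *Itpr3*, rose (0.63, limma adjusted p = 0.00167). *Cacnb2*, an auxiliary subunit of calcium channels, fell (-0.65, limma adjusted p = 0.0276) and *Ryr1*, a ryanodine receptor, rose (0.57, limma adjusted p = 0.0227).

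Of 16 genes of light chain dephosphorylation and relaxation 2 fell (12.5%) and 0 rose by limma, where 10.0% and 8.81% of all genes did. At an unadjusted p under 0.05 the counts were 4 lower and 3 higher, where 17.5% of all genes were lower and 16.4% higher. *Kcnma1*, the calcium-activated potassium channel that damps excitation, had -0.77 (limma adjusted p = 0.0171), and *Pde3a*, a cyclic nucleotide phosphodiesterase, -0.43 (limma adjusted p = 0.0110). Of 12 further regulators around SRF and myocardin 4 fell (33.3%) and 0 rose, with the same counts at an unadjusted p under 0.05. *Fhl2*, a LIM cofactor (-0.65), *Klf4*, which represses smooth muscle genes (-0.59), *Tead1*, a partner factor at muscle promoters (-0.48), and *Mrtfb*, a relative of myocardin (-0.36), had limma adjusted p values of 0.00731, 0.0127, 0.00836 and 0.0396. All 4 were lower in Sox17ed/ed uteri. Of the 17 genes named from these 5 lists and chosen for size of change, 8 passed with any 1 array left out, namely *Actn1*, *Cnn2*, *Ednrb*, *Fhl2*, *Itpr2*, *Itpr3*, *Pde3a* and *Tead1*.

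**Figure D5:**
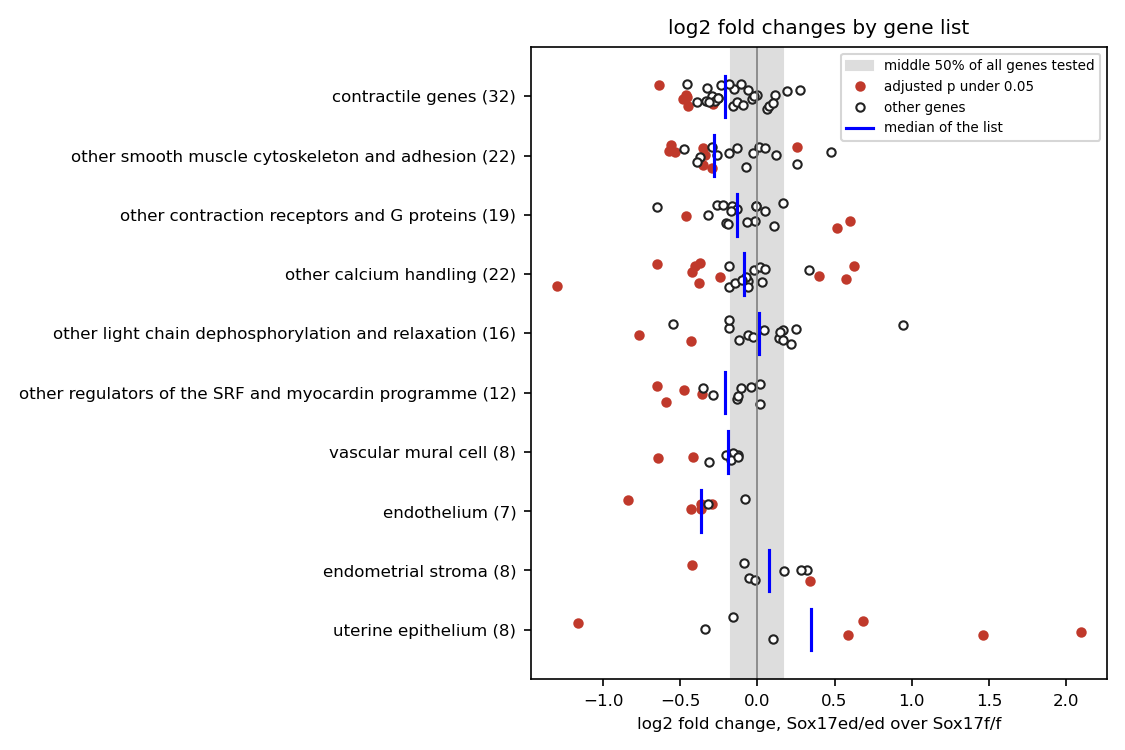
Log2 fold change (x axis) of each tested gene in 5 lists of other contraction genes and 4 lists of cell type markers beside the contractile genes, with each list's median (blue line). The gray band holds the middle 50% of all genes tested, -0.17 to 0.17, and the median of the contractile genes lies at -0.21.

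Some markers of other cell types moved with these genes, and their part in the result was not tested. The summed signal of the 32 contractile genes ran from 970741 to 1047990 in Sox17f/f and 756328 to 902332 in Sox17ed/ed uteri on the linear scale, so the groups lay apart. A few bright genes weigh heavily in this sum. *Tagln*, the brightest, ran from 167697 to 191529 in Sox17f/f and 127780 to 165744 in Sox17ed/ed uteri, and did not pass the limma test. Of 7 endothelial markers 5 fell and 0 rose (7 of 7 below 0), and their summed signal ran from 15688 to 18798 in Sox17f/f and 11128 to 12498 in Sox17ed/ed uteri. *Vwf*, the von Willebrand factor of endothelium, had -0.84 (limma adjusted p = 0.0172) and *Cdh5*, the endothelial cadherin, -0.43 (limma adjusted p = 0.00394). *Kdr* and *Tie1*, receptors of endothelium, had -0.37 and -0.36 (limma adjusted p = 0.0355 and 0.0120). Of 8 markers of vascular mural cells, which share contractile genes with the myometrium, 2 fell, *Notch3* (-0.64, limma adjusted p = 0.0146) and *Rgs5* (-0.41, limma adjusted p = 0.00478). The mural sum ran from 19240 to 20540 in Sox17f/f and 15832 to 16139 in Sox17ed/ed uteri. All 8 mural markers were below 0. The median log2 fold change was -0.19 for the mural and -0.36 for the endothelial markers, beside -0.21 for the contractile genes. Of 8 markers of endometrial stroma *Dcn*, the matrix protein decorin, fell (-0.42, limma adjusted p = 0.0172) and *Hoxa10* rose, 4 of the 8 were above 0, and the median log2 fold change was 0.078. Their sum ran from 190751 to 197631 in Sox17f/f and 158776 to 176410 in Sox17ed/ed uteri, but without *Dcn*, the brightest, it ran from 76735 to 85151 in Sox17f/f and 76013 to 85047 in Sox17ed/ed uteri, so that the groups overlapped. Of 8 markers of uterine epithelium 4 rose, the keratins *Krt19* (2.10), *Krt7* (1.46) and *Krt8* (0.69) among them, and the claudin *Cldn3* fell (-1.16). Their sum ran from 47298 to 49176 in Sox17f/f and 50364 to 62377 in Sox17ed/ed uteri. Without *Krt18*, the brightest, it ran from 20893 to 21831 in Sox17f/f and 28196 to 37364 in Sox17ed/ed uteri. Without *Vwf* and *Rgs5*, their brightest genes, the endothelial and mural sums still lay apart, lower in Sox17ed/ed uteri. Of the 19 markers named in all lists for the size of their change, 7 passed with any 1 array left out, namely *Cdh5*, *Cldn3*, *Krt19*, *Krt7*, *Lrrn4*, *Rgs5* and *Upk3b*. Every marker of the endothelial, mural, stromal and epithelial lists was well above background on all arrays. Skeletal muscle markers bear on tissue from outside the uterus, and 4 of 7 were tested, of which 2 fell and 0 rose. *Acta1*, skeletal actin, and *Tnnc2*, a troponin, fell (-0.61 and -1.10, limma adjusted p = 0.0297 and 0.0394). *Tnnt3*, another troponin, had 0.29 (adjusted p = 0.174) with all 3 Sox17ed/ed arrays above the Sox17f/f arrays, and *Ckm*, muscle creatine kinase, -0.48 (adjusted p = 0.313) with overlapping groups. *Myh4*, *Mylpf* and *Myog* were well above background on 0 of 6 arrays. The sum over the 4 tested ran from 7141 to 8018 in Sox17f/f and 4081 to 5721 in Sox17ed/ed uteri, and without *Acta1*, the brightest, from 648 to 947 in Sox17f/f and 532 to 726 in Sox17ed/ed uteri, which overlapped.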

How the data were processed

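The authors deposited scanner output for each of 6 arrays (Feature Extraction 11.0.1.1 per the file headers, 9.1 in the submitters' processing notes), 1 array a mouse. The deposited spot intensity used was the processed signal, background-subtracted and detrended, and not normalized from array to array. The authors' table of processed values was within 0.190% of the same signals. Each array held 59305 spots other than controls. With 3 arrays a genotype, the number of arrays limits the precision.

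From these files 169 to 302 outlier spots an array were left out, log2 values were quantile normalized as the methods name, and spots of a probe averaged. A probe was kept where 3 or more of 6 arrays measured it well above background. Names came from RefSeq accessions (GRCm38.p6 table), which matched 26582 of 55681 probes, and each gene was read from its brightest probe on average. Of the 14854 genes, 93 lacked an array value, none of them contractile. The genotypes were fitted in R 4.3.3 by limma 3.58.1, and p-values were adjusted by Benjamini-Hochberg across every gene tested. Tallies, exact tests and plots used matplotlib 3.10.9, scipy 1.17.1, numpy 2.4.6, pandas 2.3.3 and Python 3.11.15. Steps were tested on simulated data (seed 1) with 200 of 14854 genes changed. There 16 of 50 changes of log2 size 0.5 were recovered, and 39 of 50 of size 1.

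The members and gene lists were chosen with earlier results of these data known. Of the contractile genes, 2 are counted but not reported by name here. Each of the others is named, and of each other list up to 4 genes with the largest change among those that passed with groups apart, and *Sox17* and *Ltf*. *Svil*, *Esr1*, *Pgr*, *Hoxa11*, *Hoxa13*, *Wnt7a*, *Tnnt3*, *Ckm* and the undetected markers were named outside that rule, with values seen. The 2 *Tpm1* probes and the other probes were likewise described with values seen. Alternatives were another scaling, background correction, filter, probe rule, variance model and the authors' table, a replicate block, and each array left out. Normexp used the median spot signal, as the files hold no mean. No authors' comparison was used. Labels call the mice separate biological samples.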

Additional observations from a re-analysis of the deposited data

How the results depend on the processing

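The number of contractile genes that fell, 6, moved to 3 with no filter on low signal, 11 with an intensity trend, 3 in an ordinary linear model, and 2 to 5 when any 1 array was left out, and 0 rose under all 15 alternatives. At the thresholds of the methods the count of 1 moved to 3 with a 75th percentile shift, 2 after normexp background correction, 2 with the mean of a gene's probes, and 1 to 5 with each array left out. Their median log2 fold change stayed between -0.26 and -0.18 with each array left out. Of the other genes of contraction 11 in place of 21 fell with no filter, 7 to 18 with each array left out, and 3 in place of 6 rose with the 75th percentile shift, 2 to 8 with each array left out. Over all genes, leaving out each array gave 857 to 1332 in place of 1490 lower and 795 to 1324 in place of 1309 higher genes. *Actg2* and *Srf* fell in all 9 alternatives that keep 6 arrays. Signs changed only for genes that did not pass: *Smtn* (-0.022) and *Jph2* (0.021) with the 75th percentile shift, *Ppp1r12b* (-0.00010) and *Myocd* (0.043) after normexp, and with an array left out *Smtn* (-0.028 to 0.12), *Lmod1* (-0.32 to 0.71), *Pgm5* (-0.034 to 0.15), *Mylk* (-0.10 to 0.050), *Ppp1r12b* (-0.037 to 0.29), *Ryr2* (-0.34 to 0.10), *Jph2* (-0.059 to 0.093) and *Myocd* (-0.055 to 0.013). The cause of these shifts was not tested, except that fewer arrays lower the power of each test. With the replicate number, or slide column, as a block, 2 contractile genes, *Actg2* and *Srf*, fell, as did 9 other genes of contraction and 962 genes in all. Same-numbered arrays share a slide column, so this is also a column block, and no label ties them otherwise. Their deviations from the group means correlated at 0.062, -0.11 and -0.0016 for numbers 1 to 3 across genes, and not every array correlated best with its own number.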

Other observations

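Marker lists with no bearing on a comparison above were tallied too. Of 6 tested leukocyte markers 1 rose, *Csf1r*, the receptor of macrophage growth factor (0.41, limma adjusted p = 0.0162). Of 5 mesothelium markers 2 rose and 1 fell. *Upk3b* (1.56, limma adjusted p = 0.00636) and *Wt1* (0.26, limma adjusted p = 0.0313) rose, and *Lrrn4*, which was well above background on 0 of the 3 Sox17ed/ed arrays, was at least 1.69-fold lower. Of 5 cardiac muscle markers 1 fell, *Actc1*, the cardiac actin, which was also not well above background on any Sox17ed/ed array and was at least 1.65-fold lower. The bound divides the mean of the Sox17f/f arrays by a floor averaged over the Sox17ed/ed arrays, where the floor of an array is its lowest detected signal or that of the probe, whichever was higher, all as normalized log2 values. Of 5 uterus markers tested 1 rose, *Hoxa10* (0.34, limma adjusted p = 0.0139), and of 2 adipocyte markers tested 0 passed the limma test, also at an unadjusted p under 0.05.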
